A study of Mus musculus with 11 samples.

Results

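The insulin-like growth factor (IGF) genes described here are 10 of the 27687 genes in the deposited count table: the ligand Igf1, the receptors Igf1r and Insr, the receptor substrate Irs1, and the binding proteins Igfbp2, Igfbp3, Igfbp4, Igfbp5, Igfbp6 and Igfbp7. They were taken by their symbols, without the imprinted Igf2 and Igf2r, and all 10 passed the filter on low counts. RNA was sequenced from 11 mouse high-grade gliomas that grew in the brains of NOD-SCID mice, a strain that lacks functional B and T cells, after injection of glioma-initiating cells. These were neural stem cells of the subventricular zone of mice 7 days old that carried conditional p53, Ink4a/Arf, Krasv12 and LucR alleles, treated repeatedly in culture with a lentivirus expressing Cre from the CMV promoter. All cells, those of the controls included, also held FH1-tUTG-shEzh2, a hairpin against Ezh2 that doxycycline switches on, and had been sorted for GFP. The labels put 9 tumours in a group of prolonged knockdown of Ezh2 and 2 in a control group. The design text says that mice were given doxycycline in the drinking water or not, whereas the treatment label gives the same dose (2 mg/ml, with 1% sucrose) for every tumour, so that effects of the drug and of the hairpin cannot be told apart. The control group of 2 limits every comparison.

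IGF1 and IGF2 bind the IGF1 receptor, a tyrosine kinase that shares its substrates, IRS1 among them, with the insulin receptor and signals through PI3K and AKT to growth and survival. The secreted binding proteins hold IGFs in the extracellular space, and proteases release the ligand by cutting them. In the brain, IGF1 is made by microglia and macrophages as well as by neurons, and vessels and meninges are known sources of several binding proteins.

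The libraries held between 11209233 and 18638382 counts. Ezh2, the target of the hairpin, stood at 45.3 and 52.7 CPM (reads of a gene relative to all reads counted in the library, with totals adjusted by the TMM method) in the controls and between 7.27 and 30.4 CPM in the knockdown tumours, with a median of 14.6 CPM. Every knockdown tumour lay below both controls (log2 fold change -1.59 ± 0.44 SE, edgeR adjusted p = 0.023; exact two-sided permutation p = 0.018, the smallest that 55 splits of the tumours allow). With 1 control left out the direction held, but the adjusted p was 0.11 (without control 1) and 0.14 (without control 2). Knockdown 3 and 9 kept the most Ezh2, at 62.1% and 61.4% of the control mean. Knockdown 7 and 9 stood apart on the second principal component, at 56.0 and 68.9, and knockdown 6 lay at the other end, at -52.9, with the remaining 6 between -15.2 and 1.09. Xist, the RNA of the inactive X chromosome, stood at 74.2 and 132 CPM in the controls, at 0.11 to 1.10 CPM in knockdown 1, 7, 8 and 9 and at 41.4 CPM or more in the other 5, so that the groups differed in this too. Of 7 markers of glioma and neural stem cells, 2 rose (Pdgfra and Egfr) and 4 fell (Vim, Nes, Sox2 and Olig2), and none stood at 0 throughout a group. Their sum, mostly Vim, was 2374 to 3956 CPM in the knockdown and 6261 to 7322 CPM in the control group. Neutrophil markers were near 0 in the knockdown tumours, at a sum of 2.45 to 8.94 CPM over 7 genes against 61.5 and 206 CPM in the controls.

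Of the 10 IGF genes, 1 rose and 1 fell in the knockdown tumours at an adjusted p under 0.05 (edgeR, adjusted over all 16241 tested genes), and 8 did not pass. Igfbp7 rose 2.40-fold, a call lost in 11 of 19 alternative analyses, and Igfbp3 fell 4.93-fold, a call lost without control 1, where the log2 fold change was -0.19. Across all tested genes 23.3% were called, 10.3% as higher and 13.0% as lower, so that 2 of 10 is close to the background. In none of the 10 genes were the groups free of overlap, while 27.2% of tested genes had all 9 knockdown tumours on the same side of both controls. The median log2 fold change of the 10 genes was -0.24, beside 0.07 over all tested genes.

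**Figure D1:**
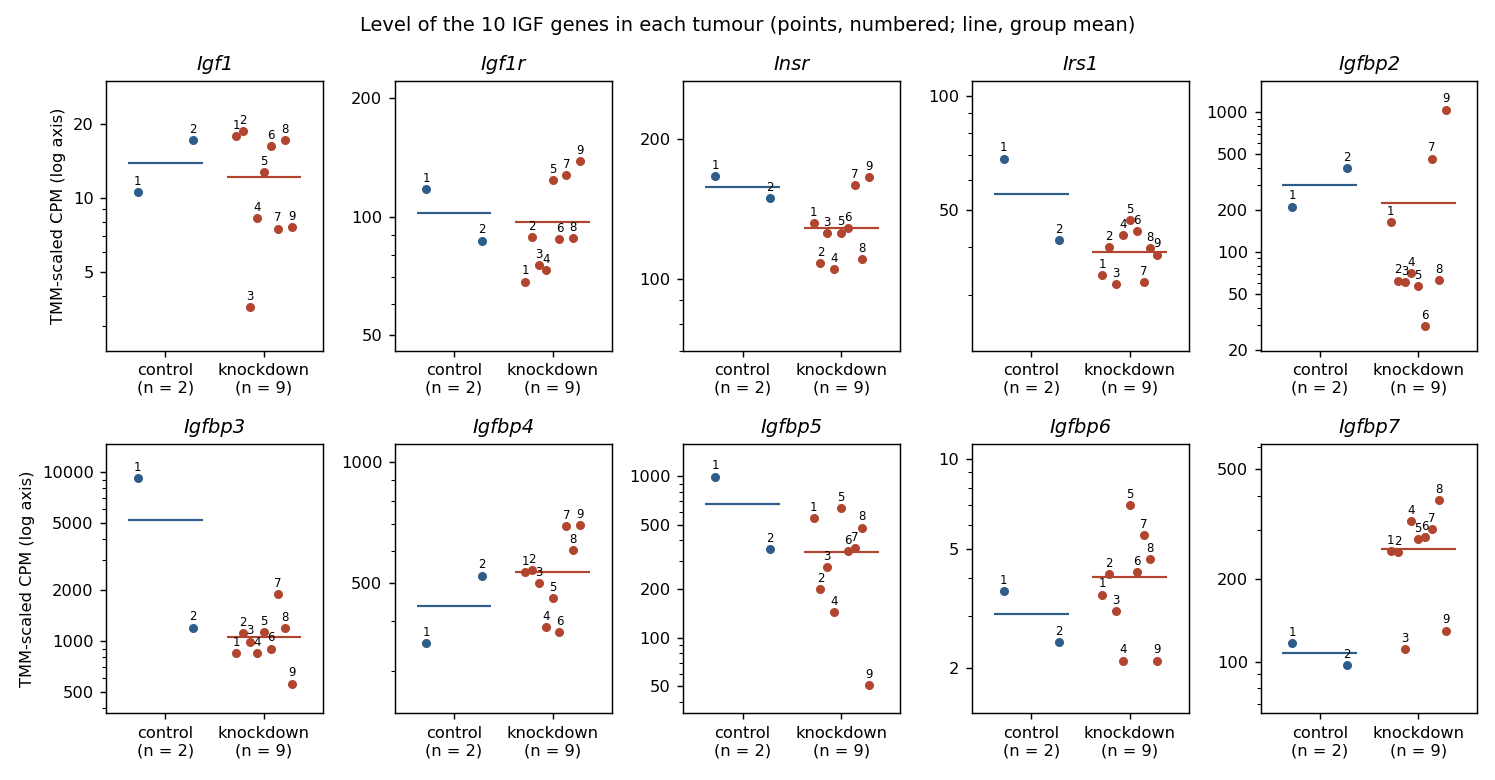
Level of each of the 10 IGF genes in TMM-scaled CPM (log axis) in every control and knockdown tumour; points carry the tumour's number and lines are group means. Igfbp3 in control 1 (9163 CPM) and Igfbp2 in knockdown 7 and 9 (466 and 1043 CPM) lie far from the other tumours of their groups, and among the knockdown tumours Igfbp7 is lowest in knockdown 3 and 9, near the level of the controls.

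The ligand and its receptors showed no change that passed the test. Igf1 stood at 10.5 and 17.2 CPM in the controls and ran from 3.59 to 18.7 CPM in the knockdown tumours, with a median of 12.7 CPM. Both controls lay inside that range, and knockdown 3 was the lowest (log2 fold change -0.19 ± 0.50 SE, edgeR adjusted p = 0.81). Igf1 (ENSMUSG00000020053, mm9 chromosome 10, 87321010 to 87399792) overlaps the antisense gene model Gm16176, which had a mean of 0.0629 CPM in the knockdown tumours and 0 in the controls. Of 10 markers of macrophages and microglia, 7 fell and none stood at 0 throughout a group. Their summed level was 592 and 1121 CPM in the controls and 240 to 592 CPM with knockdown, lowest in knockdown 3. Other tumours did not match in this way. Knockdown 2, the highest in Igf1, had a sum of 428 CPM, below the knockdown median of 470 CPM. Knockdown 7, with 7.51 CPM of Igf1, had a sum of 559 CPM, above that median. The part of these markers in the Igf1 values was not tested. In bulk tumours, fewer cells of a type and less RNA per cell cannot be told apart.

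Igf1r, the receptor for IGF1 and IGF2 (ENSMUSG00000005533, mm9 chromosome 7, 75097713 to 75371484), was measured at 117 and 86.9 CPM in the controls. In the knockdown tumours it ran from 68.3 to 138 CPM with a median of 88.0 CPM, so that the groups overlapped fully (-0.08 ± 0.26, edgeR adjusted p = 0.85). Insr, the insulin receptor (ENSMUSG00000005534, mm9 chromosome 8, 3150922 to 3279617), stood at 166 and 149 CPM in the controls and between 105 and 165 CPM, median 126 CPM, in the knockdown tumours. All knockdown tumours lay below control 1, and 7 of the 9 lay below control 2, knockdown 7 (159 CPM) and 9 (165 CPM) being the exceptions (-0.29 ± 0.17, edgeR adjusted p = 0.22). Leaving out these 2 tumours brought Insr past the test, at -0.43 on the log2 scale (edgeR adjusted p = 0.017). They were the highest of the knockdown group in Insr, so leaving them out lowers its mean by construction. This p therefore does not measure a fall across the knockdown group. An antisense gene model inside Insr, Gm16180, had 0.0320 CPM in the knockdown group and 0 in the controls.

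Irs1, the docking protein that passes the signal of both receptors on to PI3K (ENSMUSG00000055980, mm9 chromosome 1, 82229676 to 82287991), was the most even of the 10 genes among the knockdown tumours, with a coefficient of variation of 13.7%. It ran there from 32.0 to 47.0 CPM with a median of 39.7 CPM, against 68.4 and 41.7 CPM in the controls. Its log2 fold change of -0.50 ± 0.18 just missed the threshold (edgeR adjusted p = 0.068), and the outcome followed the controls: -0.82 with control 1 alone (adjusted p = 0.027) and -0.10 with control 2 alone (adjusted p = 0.82). DESeq2 called Irs1 as lower (-0.54, adjusted p = 0.041).

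**Figure D2:**
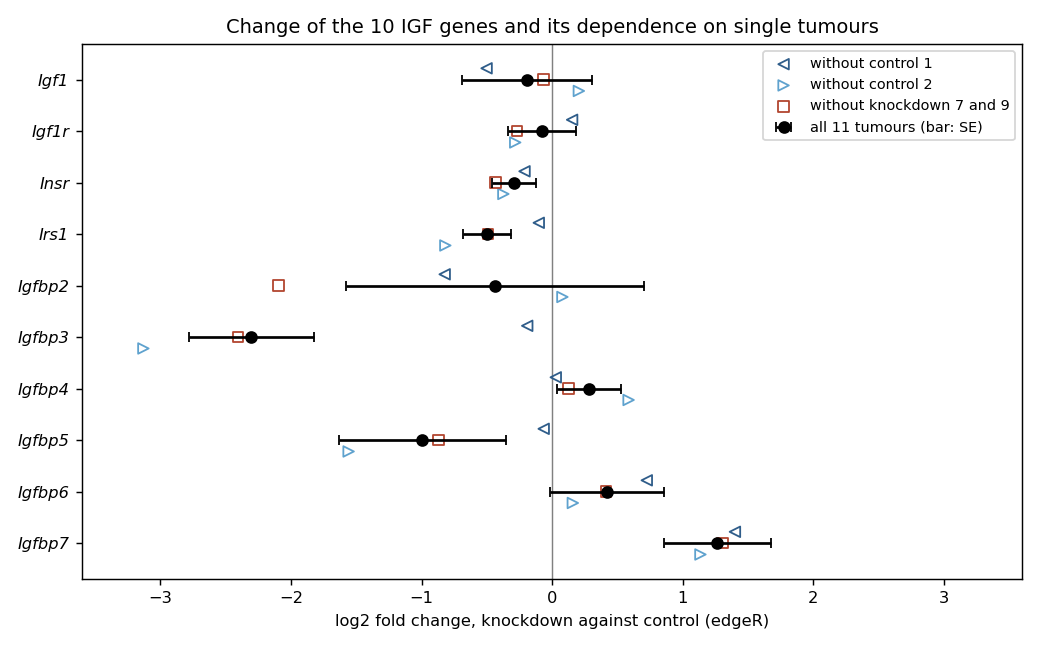
Log2 fold change of each IGF gene, knockdown against control, from all 11 tumours (filled points, bars are SE) and after leaving out control 1, control 2, or knockdown 7 and 9 (open symbols). Igfbp7 stays between 1.14 and 1.399 in these fits, and Igfbp3 moves from -2.30 to -0.19 without control 1. Igfbp2 moves from -0.44 to -2.10 without knockdown 7 and 9, the tumours highest in it.

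The promoters of the 2 called genes are shown because PRC2, the complex of which Ezh2 is the catalytic subunit, is known to occupy CpG-rich promoters. Sequences are the 250 bases before the start of transcription from RefSeq (GRCm38.p6, a later build than the mm9 of the counts), 5′ to 3′ on the gene's strand, with each CG dinucleotide in capitals. The window of Igfbp7 is chr5:77408046-77408295 on the minus strand and that of Igfbp3 is chr11:7213924-7214173 on the minus strand.
Igfbp7: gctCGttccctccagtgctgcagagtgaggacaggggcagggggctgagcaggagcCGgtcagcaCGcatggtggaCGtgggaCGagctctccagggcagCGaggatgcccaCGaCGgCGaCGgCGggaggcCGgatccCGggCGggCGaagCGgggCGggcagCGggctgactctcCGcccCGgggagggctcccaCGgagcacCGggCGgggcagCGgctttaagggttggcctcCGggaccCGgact
Igfbp3: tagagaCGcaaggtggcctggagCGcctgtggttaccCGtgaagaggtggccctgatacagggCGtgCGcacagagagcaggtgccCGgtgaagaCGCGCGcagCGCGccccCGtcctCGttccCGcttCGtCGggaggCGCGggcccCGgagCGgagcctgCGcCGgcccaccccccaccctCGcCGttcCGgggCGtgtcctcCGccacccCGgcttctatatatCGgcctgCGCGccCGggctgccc

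CG, which reads the same on both strands, occurs 26 times in the Igfbp7 window and 32 times in that of Igfbp3. It occurs at least once in 92.1% of all 32851 RefSeq windows of this length, with a median of 6 per window, and 90.4% and 95.4% of windows held fewer than these 2. Windows were found for 9 of the 10 genes, 10 windows in all, and among them Igf1r had the most CG dinucleotides (42) and Igf1 the fewest (5). Only Igf1r held more than Igfbp3, and only Igf1r, Igfbp3 and Irs1 (28) held more than Igfbp7. Any part of CG content in the calls was not tested. ACGTG, a form of the core that hypoxia-inducible factors bind, was searched on both strands (as ACGTG or CACGT). It occurred in 3 of the 10 windows, in Igfbp7, Irs1 and 1 of the 2 starts of Igfbp2, against 16.6% of all windows. The other form of the core, GCGTG (or CACGC), searched after the first was seen, occurred in 6 of the 10 windows, against 28.2% of all windows. Igf1r had 3 matches, Igfbp3 and 1 start of Igfbp2 had 2 each, and Igfbp7, Irs1 and Igf1 had 1 each. The matches were thus not particular to the called genes. All of these forms hold 1 CG. These matches describe letters and not binding.

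Igfbp7, a secreted protein of vessel walls that binds IGFs weakly and insulin as well (ENSMUSG00000036256, mm9 chromosome 5, 77778265 to 77837070), was the gene that rose. It stood at 117 and 97.5 CPM in the controls. The knockdown tumours ran from 111 to 386 CPM with a median of 278 CPM. Knockdown 3 (111 CPM) lay between the controls, knockdown 9 (130 CPM) just above them, and the other 7 tumours at 249 CPM or more. The group means were 257 ± 87.8 CPM (SD, n = 9) and 107 ± 13.7 CPM (SD, n = 2), a log2 fold change of 1.26 ± 0.41 SE (edgeR adjusted p = 0.043). The direction was the same in all 19 alternative analyses, at 1.14 to 1.399, but the call was lost in 11 of them, among them the fits that left out control 1 (adjusted p = 0.18), control 2 (0.23) or any of knockdown 1, 2, 4, 5, 6, 7 and 8 (0.051 to 0.063). Polr2b, an RNA polymerase II subunit whose gene model overlaps that of Igfbp7, had 99.4 ± 11.9 and 102 ± 9.50 CPM in the same groups.

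Among the knockdown tumours the level of Igfbp7 ran opposite to the Ezh2 that remained. Knockdown 8, with the least Ezh2 (7.27 CPM), had the most Igfbp7 (386 CPM), and knockdown 3 and 9, with the most Ezh2 (30.4 and 30.1 CPM), had the least. Pearson's r of log2(CPM + 1) was -0.94 over the 9 tumours (exact two-sided permutation p = 9.92e-05) and Spearman's rho was -0.97 (exact permutation p = 0.000165). Without knockdown 3 and 9, which lie farthest from the median of Ezh2, r was -0.87 over the 7 tumours left (exact permutation p = 0.00794, adjusted p = 0.36). Of 16240 genes related with Ezh2 in the same way, Igfbp7 ranked 29 by the size of r, and 12 genes, itself included, had an r as low. With p adjusted over all these genes its value was 0.082, and 0 genes passed 0.05. At an unadjusted exact permutation p under 0.05 stood 2636 genes (16.2%) and 1 of the 10 IGF genes. Igfbp3 followed at r = -0.64 (exact permutation p = 0.058, adjusted p = 0.33), and the other 8 genes lay between -0.48 and 0.34.

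**Figure D3:**
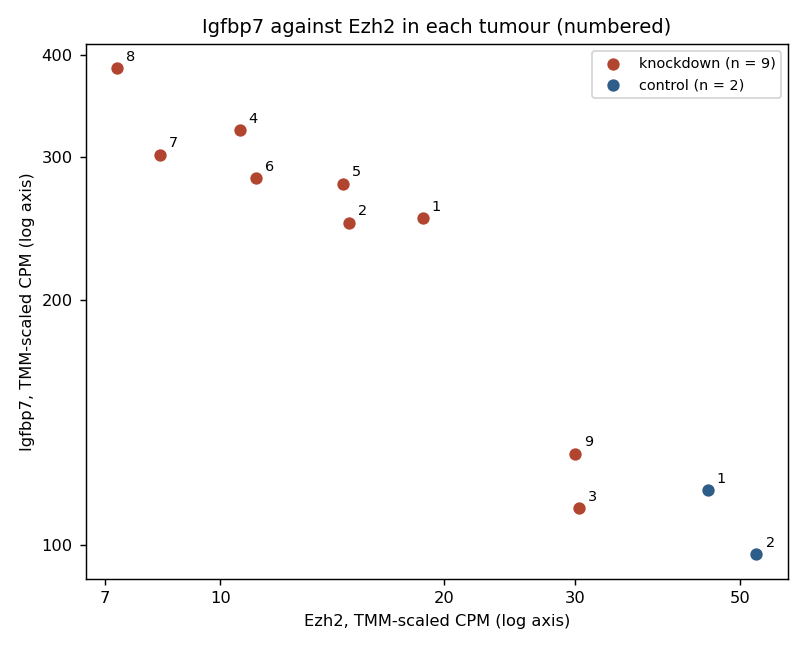
Igfbp7 against Ezh2, both in TMM-scaled CPM on log axes, in each numbered tumour. The 9 knockdown tumours fall from 386 CPM of Igfbp7 at 7.27 CPM of Ezh2 to 111 CPM at 30.4 CPM, and both controls (45.3 and 52.7 CPM of Ezh2) lie at 117 and 97.5 CPM of Igfbp7.

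Markers of the vessel wall and of connective tissue were measured beside Igfbp7. The summed level of 8 pericyte and smooth muscle markers, 2 of which rose, was 574 to 1391 CPM in the knockdown tumours and 437 to 498 CPM in the controls, lowest in knockdown 3 within its group. That of 10 endothelial markers, of which 2 rose and 1 fell, was 154 to 362 CPM against 274 and 454 CPM, and knockdown 3 was again the lowest. Flt1, the gene that fell, made up 125 to 313 CPM of the control sums and 31.5 to 54.6 CPM of the knockdown sums. The median log2 fold change of the 10 genes was 0.68. The sum of 8 fibroblast and meningeal markers, of which 1 rose and 1 fell, was 787 to 4432 CPM against 4286 and 4413 CPM, with knockdown 9 the lowest. Col1a2, the gene that fell, had a mean of 1154 CPM in the controls and 63.9 CPM with knockdown. The median log2 fold change of these 8 genes was 0.26. Tumours high in Igfbp7 were not high in all 3 sums. Knockdown 8, the highest (386 CPM), had 943 CPM of pericyte, 4169 CPM of fibroblast and 227 CPM of endothelial markers. Knockdown 7 (302 CPM of Igfbp7) had 661, 1647 and 283 CPM in the same order. The knockdown medians were 841, 2623 and 279 CPM. No marker of these lists stood at 0 throughout a group. Their part in the Igfbp7 values was not tested.

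Igfbp3, the main carrier of IGFs in serum and a gene known to respond to hypoxia (ENSMUSG00000020427, mm9 chromosome 11, 7106089 to 7113926), was the gene that fell, and the fall rested on control 1. This tumour had 9163 CPM and control 2 had 1197 CPM, a 7.65-fold gap. The knockdown tumours ran from 559 to 1882 CPM with a median of 991 CPM. All 9 were below control 1, 8 of 9 were below control 2, and knockdown 7 exceeded control 2. The means were 1050 ± 366 CPM (SD, n = 9) and 5180 ± 5632 CPM (SD, n = 2), and the log2 fold change was -2.30 ± 0.48 SE (edgeR adjusted p = 0.0061). Without control 1 it was -0.19 (edgeR adjusted p = 0.84), and without control 2 it was -3.13 (adjusted p = 0.00066).

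Among 11 genes of the hypoxia response, 8 passed the test as lower and 0 as higher. Their summed level was 5037 CPM in control 1, 2712 CPM in control 2 and 1090 to 3342 CPM with knockdown. The tumour highest in Igfbp3 within each group, control 1 and knockdown 7, was also the highest in this sum. The match did not hold at the other end. Knockdown 9, the lowest in Igfbp3 (559 CPM), had a sum of 1853 CPM, above the knockdown median of 1755 CPM. The part of hypoxia in the Igfbp3 values was not tested. Igfbp1, the neighbour 3540 bases away and a liver-made binding protein, was hardly detected, at 0.218 ± 0.417 CPM in the knockdown tumours and 0.0626 ± 0.0886 CPM in the controls.

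Igfbp2, a binding protein of fetal brain and glial cells (ENSMUSG00000039323, mm9 chromosome 1, 72871077 to 72899048), varied most among the knockdown tumours, 35.3-fold between the lowest and the highest. It stood at 211 and 395 CPM in the controls and ran from 29.5 to 1043 CPM in the knockdown tumours, with a median of 63.2 CPM. Knockdown 9 (1043 CPM) and 7 (466 CPM) lay above both controls, and the other 7, from 29.5 to 163 CPM, lay below both. Over all tumours the log2 fold change was -0.44 ± 1.14 SE (edgeR adjusted p = 0.81). Without knockdown 7 and 9 it was -2.10 (edgeR adjusted p = 0.0066). In the 5 knockdown tumours with Xist at 10 CPM or more it was -2.46 (adjusted p = 0.0025), an alternative chosen after seeing the data. Both fits leave out the tumours highest in Igfbp2, which lowers its mean by construction. Neither p therefore measures a fall across the knockdown group.

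Igfbp5 (ENSMUSG00000026185, mm9 chromosome 1, 72904506 to 72921458), which encodes a binding protein that attaches to extracellular matrix, lies 5458 bases from Igfbp2. It stood at 992 and 353 CPM in the controls and between 51.0 and 634 CPM in the knockdown tumours, with a median of 343 CPM. All knockdown tumours were below control 1, while control 2 lay in the middle of their range. The log2 fold change of -0.99 ± 0.64 did not pass (edgeR adjusted p = 0.28) and was -0.06 without control 1. The 2 neighbours parted in knockdown 9, where Igfbp2 was highest, at 344% of the control mean, and Igfbp5 lowest, at 7.58%.

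Igfbp4, a soluble binding protein that the protease PAPP-A cuts (ENSMUSG00000017493, mm9 chromosome 11, 98902558 to 98915706), had 353 and 520 CPM in the controls and 375 to 695 CPM, median 532 CPM, in the knockdown tumours. Control 1 lay below all of these and control 2 among them (0.28 ± 0.25, edgeR adjusted p = 0.43). Igfbp6, which prefers IGF2 as its ligand (ENSMUSG00000023046, mm9 chromosome 15, 101974793 to 101979942), was scarce, at 3.62 and 2.44 CPM in the controls and 2.12 to 7.02 CPM, median 4.11 CPM, in the knockdown tumours (0.42 ± 0.43, edgeR adjusted p = 0.51). These values rest on 31 to 109 reads per library.

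Levels were compared between genes only per kilobase of exon, with lengths of the gene models in GENCODE M21. On that scale Igfbp3 was the highest of the 10 in the knockdown tumours, at 335 ± 117 CPM per kb (SD, n = 9), followed by Igfbp7 (213 ± 72.6), Igfbp2 (121 ± 182), Igfbp4 (120 ± 26.5) and Igfbp5 (56.2 ± 32.1). The place of Igfbp2 rested on knockdown 9, without which its mean was 65.8, below Igfbp4 at 116, and its median of 34.2 was below the 57.1 of Igfbp5. The ranges of neighbours in this order overlapped. Insr (9.37 ± 1.55), Igf1r (5.76 ± 1.56), Irs1 (4.25 ± 0.58), Igfbp6 (3.63 ± 1.42) and Igf1 (1.23 ± 0.56) came next. Igfbp5 in knockdown 9 (8.49) fell among the values of Insr, and the levels of Insr did not overlap those of Irs1. The order differed between the controls: after Igfbp3 came Igfbp5 (165) and Igfbp2 (114) in control 1, and Igfbp2 (214) and Igfbp4 (118) in control 2, and Igfbp7 was the fourth in both (96.7 and 80.6). The ligand Igf1 was the lowest of the 10 in both groups.

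Neighbouring genes within 100 kb were read from the table's coordinates. Of these, Fam169b, 47241 bases from Igf1r (2.21 ± 0.43, edgeR adjusted p = 0.0045), and Tenc1, 27961 bases from Igfbp6 (1.18 ± 0.27, adjusted p = 0.010), rose. Rhbdd1, 25036 bases from Irs1 (-1.51 ± 0.26, adjusted p = 0.0021), and Tns4, 11286 bases from Igfbp4 (-1.50 ± 0.41, adjusted p = 0.021), fell. Other genes of the table lay nearer to Igf1r and Igfbp6 than these. The 4 IGF genes in question did not pass the test. Only called neighbours are named here, and most of the tested neighbours did not pass. Across all tested genes 23.3% were called.

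As shares of the summed per-kilobase level of the 6 binding proteins, Igfbp7 made up between 10.5% (knockdown 9) and 38.8% (knockdown 4) in the knockdown tumours, against 2.85% in control 1 and 9.42% in control 2. Shares of a sum are tied to each other. Control 1 had the lower share of Igfbp7 but the higher level (96.7 against 80.6 CPM per kb), beside 2927 CPM per kb of Igfbp3. As levels the groups overlapped, with the lowest knockdown tumour at 92.0 CPM per kb of Igfbp7. Igfbp3 made up 17.5% to 52.5%, against 86.4% in control 1 and 44.7% in control 2. Igfbp2 made up 55.5% in knockdown 9 and 19.0% in knockdown 7, but at most 11.3% in the other 7, against 3.38% in control 1 and 25.0% in control 2. In knockdown 9 the binding protein RNA was thus mostly Igfbp2, and in control 1 mostly Igfbp3.

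**Figure D4:**
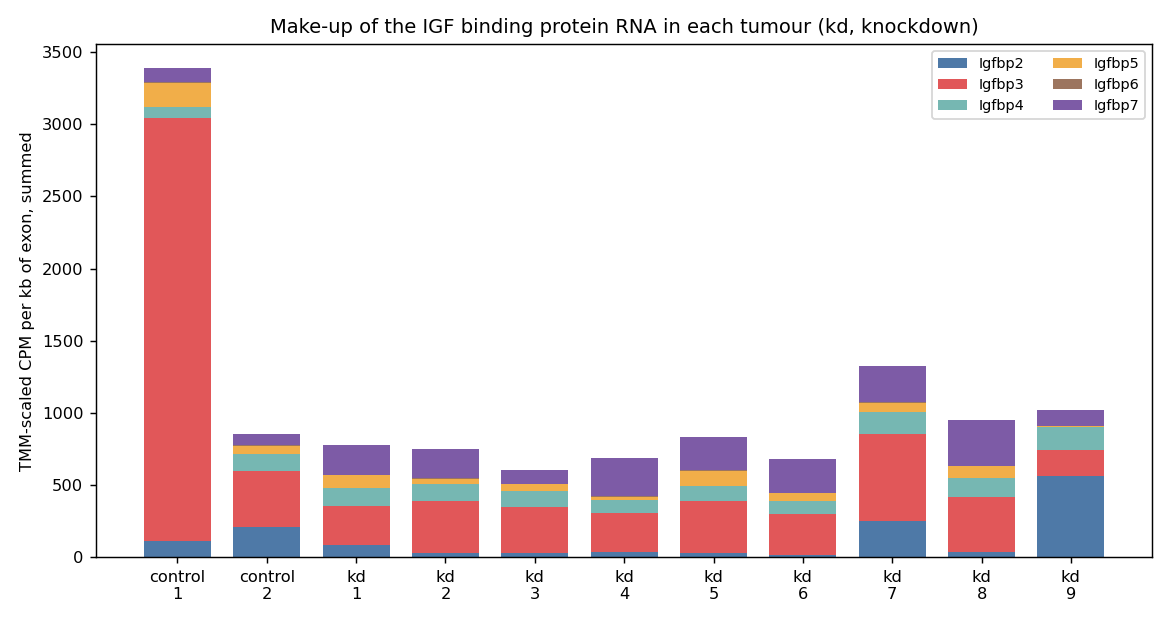
Stacked bars of the 6 IGF binding proteins in TMM-scaled CPM per kb of exon in each tumour. Control 1 reaches 3387 CPM per kb, mostly Igfbp3, the other tumours lie between 603 and 1325 CPM per kb, and knockdown 9 is mostly Igfbp2.

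The genes whose levels ran closest to each IGF gene over the 9 knockdown tumours are given as a description, by Pearson's r of log2 CPM. All tumours share the same scaling, and the top 3 of 16241 genes have a high r by the way they are found. Igf1 ran with Irf5 (r = 0.95), Cd48 (0.95) and Maf (0.95), which are all expressed in macrophages. Igfbp7 ran with Marveld2 (0.97), Lum (0.96), which encodes the matrix proteoglycan lumican, and Gypc (0.95). Marveld2 and Gypc rose in the knockdown tumours (log2 fold changes 1.72 ± 0.40 and 1.10 ± 0.33, edgeR adjusted p = 0.011 and 0.033), as Igfbp7 did. Igfbp2 ran with Fzd9, a Wnt receptor (0.99), Ccrl1 (0.99) and Ifnar2 (0.98), and Igfbp3 with Cpt2 (0.96), Arfgap3 (0.96) and Tec (0.95). Igfbp4 ran with Atp6ap1 (0.96) and Atp6v0c (0.94), both of the vacuolar proton pump, and Tox2 (0.95), and Igfbp5 with Klrb1c, Sema3a and Micall2 (0.91 each). For Igf1r the closest were H60b (0.96), Prr14 (0.93) and Atp13a4 (0.92), for Insr Cttnbp2nl (0.97), Zdhhc9 (0.97) and Copg (0.95), and for Irs1 they included Chrm4 (0.93) and Gpr18 (0.92). A high r within the knockdown group did not always go with the same call between groups. Cpt2 rose (0.64, edgeR adjusted p = 0.015) while Igfbp3 fell, and Irf5 (-1.20, adjusted p = 0.020), Cttnbp2nl (-1.86, adjusted p = 0.00012), Atp6ap1 (-0.87, adjusted p = 0.0017), Atp6v0c (-0.78, adjusted p = 0.0054) and Klrb1c (-3.67, adjusted p = 0.0010) fell beside genes that did not pass the test.

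The pathway around these genes was followed in 66 further genes of the table, of which 62 passed the filter on low counts. Of these, 6 rose and 10 fell, and the median log2 fold change was 0.04, beside 0.07 over all tested genes. This share of calls is close to the 23.3% of all tested genes. Of the 16 called genes, 8 passed without control 1, 10 without control 2 and 5 in both of these fits. The 3 tested genes of the ligand group (Igf2, the clearance receptor Igf2r and Igfbpl1) did not pass. Igf2 stood at 3.34 ± 1.65 CPM in the knockdown and 9.49 ± 5.36 CPM in the control tumours (-1.51 ± 0.53, edgeR adjusted p = 0.059).

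Of 9 proteases that cut binding proteins and their inhibitors, 1 rose and 4 fell. Htra1, a secreted serine protease that cuts binding proteins, fell from 337 ± 49.3 to 105 ± 23.4 CPM (log2 fold change -1.68 ± 0.21, edgeR adjusted p = 0.00035). Mmp9, a gelatinase abundant in neutrophils, fell from 559 ± 390 to 31.3 ± 28.9 CPM (-4.16 ± 0.68, adjusted p = 0.0017), beside the fall of all 7 neutrophil markers, whose part in it was not tested. Pappa2, a protease of Igfbp3 and Igfbp5, rose from 3.80 ± 1.35 to 20.5 ± 7.83 CPM (2.42 ± 0.52, adjusted p = 0.0071), but not past the test without control 1 (2.10, adjusted p = 0.097). The other 2 that fell, named after their values were seen, were Stc2, an inhibitor of such proteases (-2.52, and -1.59 with adjusted p = 0.14 without control 1), and Adam12 (-2.04, and -0.22 with adjusted p = 0.88 without control 2). Adam12 also missed the threshold without knockdown 2 or 5 (edgeR adjusted p = 0.053 and 0.051).

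Of 14 tested adaptors and feedback regulators at the receptor, 1 rose and 3 fell. Socs2, a suppressor of growth hormone signalling, fell from 27.9 ± 3.28 to 9.91 ± 1.75 CPM (-1.50 ± 0.19, edgeR adjusted p = 0.00047). Grb10, an adaptor that dampens both receptors, fell from 22.1 ± 9.21 to 6.47 ± 2.53 CPM (-1.77 ± 0.37, adjusted p = 0.0066), but did not pass without control 2 (-1.27, adjusted p = 0.13). The adaptor Sh2b2 rose from 12.3 ± 0.165 to 21.7 ± 2.90 CPM (0.82 ± 0.18, adjusted p = 0.0074), and passed in neither fit with 1 control (adjusted p = 0.068 and 0.064). The third that fell, named after its values were seen, was Ptpn1, a phosphatase of both receptors (-0.50 ± 0.11, adjusted p = 0.0076), and it did not pass without control 2 (adjusted p = 0.093).

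Of 14 genes of PI3K and AKT, 2 fell and none rose. Pik3cb, the beta catalytic subunit of PI3K, fell from 65.6 ± 28.1 to 16.4 ± 4.50 CPM (-2.001 ± 0.28, edgeR adjusted p = 0.00072), and passed without either control in turn. Pik3r2, a regulatory subunit, went from 180 ± 21.5 to 117 ± 13.5 CPM (-0.63 ± 0.13, adjusted p = 0.0066; -0.50 with adjusted p = 0.12 without control 1). Of 14 genes of mTOR and FOXO, 1 rose and 1 fell. Deptor, which binds and inhibits mTOR, rose from 19.4 ± 5.15 to 61.5 ± 18.2 CPM (1.66 ± 0.35, adjusted p = 0.0068), and Mtor fell from 110 ± 7.24 to 72.0 ± 7.20 CPM (-0.61 ± 0.12, adjusted p = 0.0040). Without control 1 neither passed (adjusted p = 0.10 and 0.069).

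Of 5 genes of the growth hormone axis, 2 rose and none fell. Stat5b, a transcription factor through which growth hormone induces Igf1 in liver, rose from 39.3 ± 5.00 to 85.2 ± 13.8 CPM (1.11 ± 0.19, edgeR adjusted p = 0.0021), while Igf1 itself did not pass the test. Its paralog Stat5a rose from 15.7 ± 0.276 to 32.2 ± 7.14 CPM (1.03 ± 0.24, adjusted p = 0.011), but in neither fit with 1 control (adjusted p = 0.094 and 0.086). Reads of the 2 paralogs could be split between them where their sequences are alike. Of the 3 RNA-binding proteins named for Igf2 mRNA, Igf2bp1 rose from 0.224 ± 0.228 to 8.73 ± 6.30 CPM (5.30 ± 1.27, edgeR adjusted p = 0.012). It passed in neither fit with 1 control (6.94 without control 1 and 4.47 without control 2), nor in limma-voom (adjusted p = 0.084). Its control mean was near the level of 3 counts (0.231 CPM in control 1 and 0.188 CPM in control 2), so the size of the fold is uncertain.

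**Figure D5:**
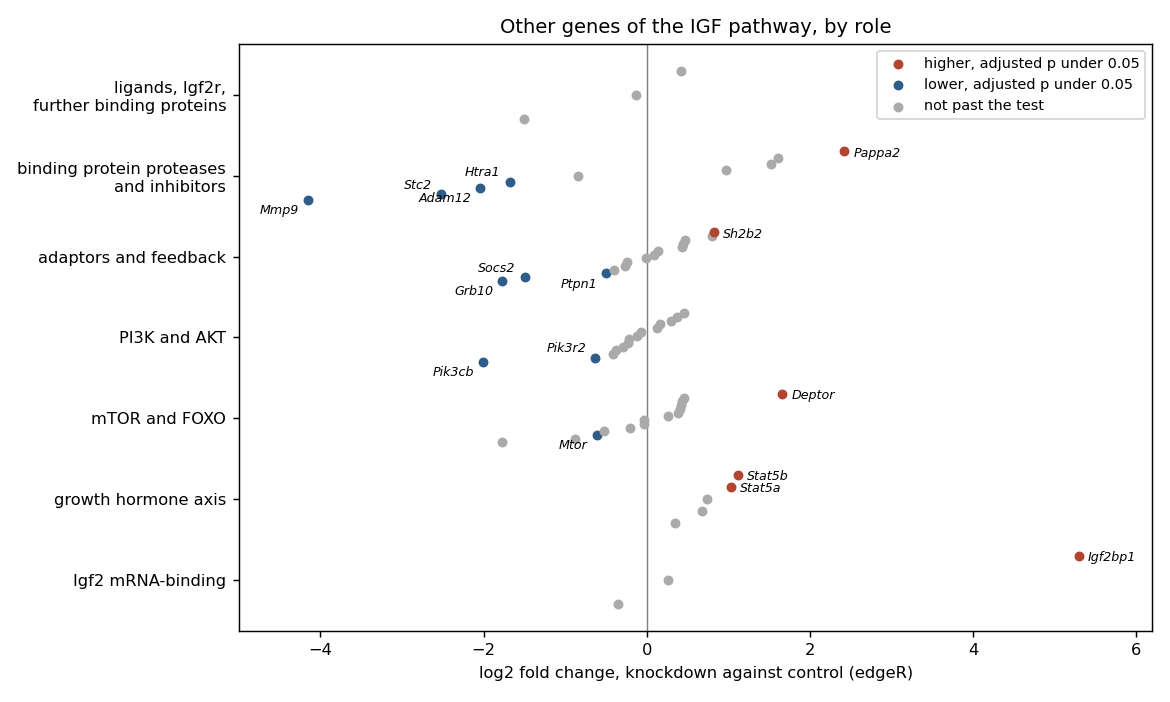
Log2 fold change, knockdown against control, of the 62 tested genes of the wider IGF pathway, each point a gene, grouped by role and coloured by call. Called genes run from Mmp9 at -4.16 to Igf2bp1 at 5.30, and most points of the PI3K, AKT, mTOR and FOXO groups lie near 0.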

How the data were processed

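The deposited table gives whole-number read counts per Ensembl gene for 11 tumours. Per the submitters' processing notes TopHat 1.4.0, HTSeq and mm9 were used to make these counts, with roles, settings and use of strand not given in the sources used here, so reads of a gene and its antisense partner may be mixed. Groups and numbers come from the sample titles. The labels do not say that tumours came from separate cell preparations, and p-values then measure only the spread between these samples. Replicates of a group differed beyond sampling noise (smallest chi-square per degree of freedom 11.2).

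Counts were analysed in R 4.3.3 with edgeR 4.0.16: filterByExpr kept 16241 of 27687 genes, TMM factors (0.919 to 1.077) scaled the libraries, and the quasi-likelihood F-test compared 9 knockdown with 2 control tumours, without covariates, with Benjamini-Hochberg adjustment over all tested genes and a threshold of 0.05. SEs are the log2 fold change divided by the square root of F. CPM are given as mean ± SD. In simulated counts over 16241 genes, this test recovered 18 of 100 genes changed 2-fold and 70 of 100 changed 4-fold. Relations with Ezh2 enumerate all pairings of 9 tumours, with a pseudocount of 1.

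Alternatives were RLE size factors, no filter, DESeq2 1.42.0, limma-voom (limma 3.58.1), a 1.5-fold null, a replicate block and left-out libraries. The members, lists and tests were chosen with earlier results of these data known. All 10 members were named. From each role group the 2 called genes with the smallest p in each direction were named, and for each member with an average log2 CPM of at least 2 the 3 closest genes, without predicted names; 1 of these is not reported here. Of 68 further pathway symbols 66 were found in the table. Sequences come from RefSeq (GRCm38.p6).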

Additional observations from a re-analysis of the deposited data

Results flagged for a closer look

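The levels of the 10 IGF genes and Ezh2 in the 9 knockdown tumours were screened for a tumour far from the rest. Chance flags about 1 in 20 groups of normally distributed values. The screen used CPM without a log, and skewed values can be flagged more often. In Igfbp2, knockdown 9 stood at 1043 CPM, and its gap to the next tumour was 0.569 of the group's range. In Igfbp3, knockdown 7 stood at 1882 CPM, with a gap of 0.521 of the range. On the second principal component knockdown 7 and 9 stood apart at one end and knockdown 6 at the other.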

How the results depend on the processing

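Igfbp7 stayed higher in all 19 alternatives (1.14 to 1.399) and Igfbp3 lower (-3.13 to -0.19). Fits without both knockdown 7 and 9 leave out the knockdown tumours highest in Igfbp2 and Insr, which lowers both means by construction. The number of IGF genes called higher, 1 in the main analysis, was 0 without the filter on low counts and against a 1.5-fold change, and 0 to 1 with single tumours left out. The number called lower, also 1, was 2 with DESeq2, 3 without knockdown 7 and 9, 3 (Igfbp3, Igfbp2 and Insr, the last at -0.44 with edgeR adjusted p = 0.028) in the libraries with Xist at 10 CPM or more, which leaves out knockdown 1, 7, 8 and 9 and was chosen after seeing the data, and 0 to 2 with single tumours left out. Of all genes 3790 were called, 1159 against a 1.5-fold change and 1290 to 4269 with single tumours left out (1290 without control 1, 1750 without control 2). Of the pathway genes 6 rose and 10 fell, against 6 lower under the 1.5-fold null, 16 lower without knockdown 7 and 9, 11 higher in the libraries with Xist, and 1 to 8 higher with single tumours left out (1 without control 1, 3 without control 2). With the replicate block, which only tumours numbered 1 and 2 inform, 686 genes, 0 lower IGF genes and 4 lower pathway genes were called. Whether the shared numbers pair the tumours is not known. Deviations of knockdown and control 1 correlated at -0.142 and those of number 2 at 0.0165. With 2 controls the deviations of one mirror those of the other, so these values cannot settle the question. Signs of genes that did not pass reversed for Igf1 (0.43 with the block, and -0.50 to 0.20 with single tumours left out, 0.20 being without control 2), Igf1r (-0.28 to 0.15, without control 1) and Igfbp2 (-1.32 to 0.078, without control 2). Without length scaling 6 of the 10 genes changed rank by level. For scarce genes depth limits the values, 3 counts being 0.162 to 0.273 CPM.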
